A study of Homo sapiens with 11 samples.

Results

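The genes described here are 10 keratins. They were chosen by name, with earlier results of these data known, as keratins of luminal and basal epithelium together with KRT80 and KRT81. Each was looked up by its Ensembl identifier in the count tables. The 10 members (of 23167 genes in the tables, and of 49 keratin genes there) are KRT8 (ENSG00000170421), KRT18 (ENSG00000111057), KRT7 (ENSG00000135480), KRT19 (ENSG00000171345), KRT5 (ENSG00000186081), KRT6A (ENSG00000205420), KRT14 (ENSG00000186847), KRT17 (ENSG00000128422), KRT80 (ENSG00000167767) and KRT81 (ENSG00000205426). All samples were MDA-MB-231 cells, a line grown from a triple-negative breast carcinoma, and each group is therefore material of 1 line. RNA-seq of total RNA was made from 2 libraries of wild-type cells (WT), which received the transfection reagent without siRNA, and from 2 libraries of cells depleted of the histone variant mH2A1.1 (mH2A1.1 KD), which received siRNA at 11 nM and were collected on day 3. Chromatin of WT cells was immunoprecipitated with an antibody to mH2A1.1 and with an antibody to total mH2A1, 1 library each. The input and the promoter capture Hi-C samples of the series were not analysed here. The question put to the members was whether their transcripts differed between WT and KD cells and whether their genes lay under mH2A1.1 or mH2A1 peaks. The labels do not say that the 2 libraries of a group came from separate cultures, so p-values measure the spread between libraries, which may be technical.

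Keratins are the intermediate filament proteins of epithelial cells. A filament needs a type I partner, acidic and mostly encoded on chromosome 17, and a type II partner, neutral or basic and encoded on chromosome 12, and either partner alone is degraded. KRT8 and KRT18 form the pair of simple and luminal epithelium, with KRT7 and KRT19 beside them in ductal cells. KRT5 and KRT14 form the pair of basal and myoepithelial cells, and KRT6A and KRT17 are induced in stressed, wounded or basal-like epithelium. KRT80 is a type II keratin found near desmosomes and KRT81 is a type II hair keratin that some carcinomas express. mH2A1.1 is a splice isoform of the histone variant macroH2A1, which replaces H2A in part of the nucleosomes.

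The 4 RNA-seq libraries held 9794674 and 7856892 counts in WT and 5584962 and 2309549 counts in KD, so KD replicate 2 was the shallowest. Chromosomes 22 and X were without a count in that library, and chromosome 21 held 30, against 6.23 to 6.57% of counts on these chromosomes in the other libraries, and all comparisons leave the 3 chromosomes out; no member lies on them. The targeted gene MACROH2A1 had 385 and 394 CPM (counts scaled to the TMM-normalised library size) in WT and 274 and 300 CPM in KD, without overlap, a log2 fold change of -0.44 ± 0.17 (SE, n = 2 against 2 libraries; adjusted p = 0.205, edgeR). Its counts add up the mH2A1.1 and mH2A1.2 isoforms, so they do not measure mH2A1.1 by itself. Over all 10963 genes tested, the change moved with base composition: the median log2 fold change was -0.48 for genes whose exons held under 40% G+C and 0.39 for the 1541 genes at 55 to 60%. The exons of the members hold 52.0 to 62.3% G+C. A second edgeR fit, in which a smooth trend on gene length and G+C was removed from each library, is therefore given beside the first. The part of this trend in any keratin value was not tested beyond that fit.

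Markers of cell type gave the picture of a mesenchymal breast line with some epithelial transcripts, but not every mesenchymal marker was abundant. CDH2, a cadherin on the mesenchymal list, had 21 and 25 counts in WT and 14 and 6 counts in KD. SNAI2, also on that list, stood at 54.2 to 70.9 CPM. VIM, the intermediate filament of mesenchymal cells, stood at 2315 to 4726 CPM over the 4 libraries. EPCAM, an epithelial adhesion molecule, stood at 19.9 to 24.2 CPM, and CDH1, the cadherin of epithelial junctions, had 22, 19, 2 and 5 counts. CLDN7, a claudin, and ESRP2, an epithelial splicing factor, stood at 4.72 to 9.45 and 3.89 to 7.09 CPM. The hormone receptor genes ESR1 and PGR had no counts. The summed level of the 8 epithelial markers was 106 and 111 CPM in WT and 179 and 328 CPM in KD, of which CLDN4, a tight junction claudin, made up most. Of the 6 epithelial markers tested, 3 were higher in both KD libraries than in both WT libraries, against 32.5% of all genes tested. CLDN4 had 71.9 and 73.5 CPM in WT and 141 and 285 CPM in KD, a log2 fold change of 1.54 (adjusted p = 0.176, edgeR), and was called by DESeq2 (adjusted p = 0.000395) and with the trend removed (1.11, adjusted p = 0.0253, edgeR). RAB25 was the epithelial marker without a count. The summed level of the 8 mesenchymal markers was also higher, at 6389 and 6551 CPM in WT and 7161 and 9687 CPM in KD, led by VIM, AXL (1722 to 2283 CPM), CD44 (1319 to 1408 CPM) and FN1 (746 to 1046 CPM). The set did not move as one: 4 of the 8 were higher in both KD libraries and 2 were lower in both. Among the 10963 genes tested these numbers were 3561 and 3552. The 2 lower ones were ZEB1 (165 and 151 CPM in WT, 133 and 120 CPM in KD) and ZEB2 (32.8 and 31.6 CPM, 29.3 and 31.2 CPM). ERBB2, a growth factor receptor, stood at 79.95 to 128 CPM. Immune markers summed to 0.76 to 3.58 CPM and endothelial markers to 11.1 to 14.7 CPM. The part of these markers in the keratin values was not tested. In bulk RNA, more cells with a keratin and more of its RNA per cell cannot be told apart.

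The 4 simple keratins were higher in both KD libraries than in both WT libraries, between 1.75-fold (KRT7) and 2.12-fold (KRT8) by mean CPM. Both groups were separate for each of the 4. Among all genes tested, 32.5% had both KD libraries above both WT libraries, and among the 6 members tested 4 did. By edgeR none of the 6 was called (adjusted p under 0.1 and a fold over 1.5), but neither was any of the 10963 genes (0%; smallest adjusted p = 0.176). With an unadjusted p under 0.05 and a fold over 1.5 there were 1036 genes higher and 1027 lower in KD, and the 4 simple keratins were among the former. DESeq2, fitted to 15068 genes, called all 4 of them higher, against 5.52% of the 7765 genes to which it gave an adjusted p. After removal of the length and G+C trend edgeR called KRT8 and KRT19, against 2.19% of genes higher in KD. The sizes depended on the KD libraries: the log2 fold changes of KRT8, KRT18, KRT7 and KRT19 were 0.72, 0.51, 0.36 and 0.83 without KD replicate 2, and 1.37, 1.15, 1.14 and 1.25 without KD replicate 1, the lone KD library being assumed to vary like the WT libraries.

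KRT8, the type II partner of simple epithelium, is encoded on the minus strand at chr12:52897187-52949954 (GRCh38). It had 496 and 555 CPM in WT and 862 and 1364 CPM in KD, from 4715, 4222, 4561 and 2887 counts. The KD libraries were 1.64 and 2.60 times the WT mean, so the KD libraries differed from each other by more than the WT libraries did. The log2 fold change was 1.08 ± 0.25 (SE; 95% interval 0.48 to 1.68; adjusted p = 0.194, edgeR). DESeq2 gave 1.06 ± 0.26 with an adjusted p of 0.00516. With the trend removed the change was 0.72 ± 0.13 (adjusted p = 0.0337, edgeR).

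KRT18, the type I partner of KRT8 and the one type I keratin in the chromosome 12 cluster, lies at chr12:52948871-52952906 on the plus strand. It stood at 344 and 380 CPM in WT and at 515 and 808 CPM in KD. The lower KD library was 1.42 times the WT mean. The log2 fold change was 0.87 ± 0.25 by edgeR (adjusted p = 0.194) and 0.85 ± 0.26 by DESeq2 (adjusted p = 0.0344). With the trend removed it was 0.49 ± 0.12 (adjusted p = 0.0682, edgeR), which is past the p threshold and short of a 1.5-fold change.

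KRT7, a type II keratin of glandular and ductal cells at chr12:52232520-52252186 on the plus strand, had 285 and 313 CPM in WT and 382 and 663 CPM in KD. Of the 4 simple keratins it had the lowest first KD value relative to WT, 1.28 times the WT mean. The log2 fold change was 0.80 ± 0.28 by edgeR (adjusted p = 0.194) and 0.78 ± 0.28 by DESeq2 (adjusted p = 0.0677), and 0.38 ± 0.13 with the trend removed (adjusted p = 0.134, edgeR).

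KRT19, the smallest type I keratin and a marker of luminal and ductal cells, lies on the minus strand at chr17:41523617-41528308. It had 260 and 287 CPM in WT and 486 and 656 CPM in KD. The spread between its KD libraries was the narrowest of the 4 genes relative to the distance from WT, with 1.78 and 2.40 times the WT mean. The log2 fold change was 1.06 ± 0.21 by edgeR (adjusted p = 0.176) and 1.04 ± 0.24 by DESeq2 (adjusted p = 0.00238). With the trend removed it was 0.59 ± 0.11 (adjusted p = 0.0337, edgeR), just past a 1.5-fold change. Among the alternative settings that kept all 4 libraries, KRT19 was the member called under the most, followed by KRT8, KRT18 and KRT7. Such settings re-fit the same libraries, so their calls are not independent of each other. They also differed in how many of all genes they called. That number was 2208 with the replicate block, 2139 without the filter on low counts, 874 with DESeq2 and 80 with thinned counts.

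**Figure D1:**
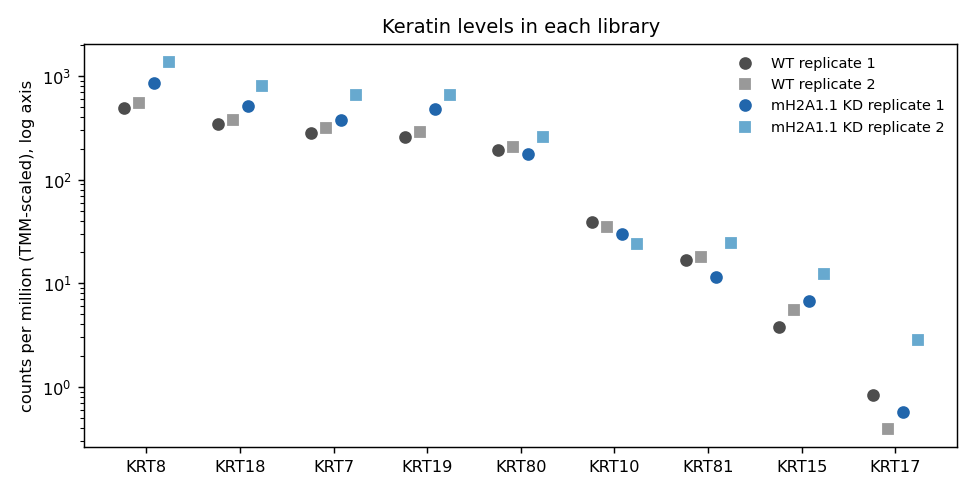
CPM in each of the 4 RNA-seq libraries (log axis) for KRT8, KRT18, KRT7, KRT19, KRT80, KRT10, KRT81, KRT15 and KRT17, one point per library. KRT8, KRT18, KRT7 and KRT19 lie higher in both KD libraries (blue) than in both WT libraries (grey), whereas for KRT80, KRT81 and KRT17 the groups overlap.

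KRT80 and KRT81, the other type II members, did not follow the simple keratins. KRT80 (chr12:52168996-52192014, minus strand) had 192 and 209 CPM in WT and 178 and 259 CPM in KD. The WT values lay between the KD values. Its log2 fold change was 0.12 (95% interval -0.42 to 0.65; adjusted p = 0.757, edgeR), and with the trend removed -0.28 (95% interval -0.51 to -0.05; adjusted p = 0.137). KRT81 (chr12:52285913-52291534, minus strand) had 16.7 and 17.9 CPM in WT and 11.5 and 24.6 CPM in KD. Here too the KD values enclosed the WT values. The log2 fold change was -0.04 (95% interval -0.87 to 0.79; adjusted p = 0.952, edgeR), and -0.57 (95% interval -1.004 to -0.13; adjusted p = 0.119) with the trend removed. Neither gene was called by edgeR, DESeq2 or edgeR with the trend removed, and the sign of both changed between settings. With the trend removed and KD replicate 2 left out, a setting added after the data were seen, KRT81 was called lower (log2 fold change -0.78, adjusted p = 0.00278, edgeR).

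**Figure D2:**
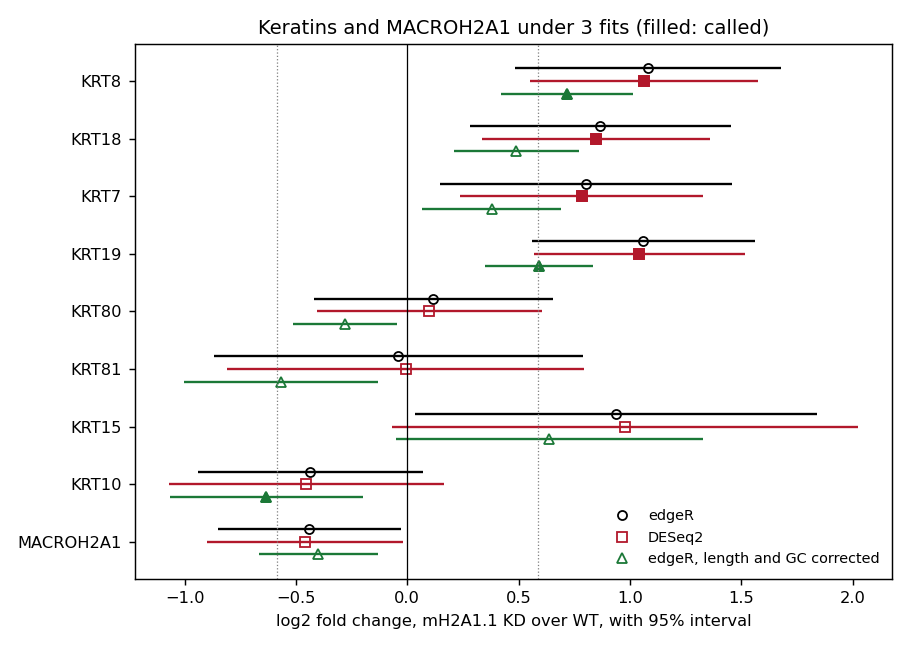
Log2 fold change of KD over WT for the tested keratins and MACROH2A1 under edgeR, DESeq2 and edgeR with the length and G+C trend removed, with 95% intervals; filled symbols mark calls and dotted lines a 1.5-fold change. KRT8 and KRT19 are filled under DESeq2 and after removal of the trend, KRT18 and KRT7 under DESeq2 alone, and KRT80 and KRT81 under none.

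The basal keratins were at or near the floor of detection in every library. KRT6A (chr12:52487176-52493257) and KRT14 (chr17:41582279-41586895) had no count in any library. A count of 0 allows up to 3 counts, which is 0.315 and 0.393 CPM in WT and 0.564 and 1.42 CPM in KD. KRT5 (chr12:52514575-52520530) had 1 count, in KD replicate 1. KRT17 (chr17:41619442-41624842) had 8 and 3 counts in WT and 3 and 6 in KD, or 0.84, 0.39, 0.57 and 2.84 CPM. None of the 4 passed the filter on low counts, so none was tested by edgeR, and no difference between WT and KD was detectable at this depth. Leaving out KD replicate 1, which leaves 1 KD library assumed to vary like the WT libraries, let KRT17 through the filter. Its log2 fold change was then 2.10, resting on 6 counts in that KD library. Floors and intervals of this kind cover counting error only.

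Levels are compared between genes per kilobase of exon, as RPKM (CPM divided by kilobases of exon), on the WT mean ± SD of 2 libraries. With the summed length of all annotated exons, KRT18 (118 ± 8.47) and KRT19 (117 ± 8.11) came first and did not differ beyond their spread. KRT8 (76.4 ± 6.08) and KRT7 (74.7 ± 4.95) followed and likewise overlapped. KRT80 came next at 46.0 ± 2.72, KRT81 at 8.97 ± 0.42 and KRT17 at 0.206 ± 0.106, each below its predecessor by more than the spread. All 4 simple keratins ranked above 97% of the genes with a count (97.6 to 98.9%) and KRT80 above 95.04%. The order of the first 4 depends on the length used. With the length of the Ensembl canonical transcript, chosen as an alternative after the data were seen, KRT8 came first at 295 ± 23.5, then KRT18 at 256 ± 18.4, KRT19 at 197 ± 13.6 and KRT7 at 184 ± 12.2, since the annotated exons of KRT8 sum to 6881 bases and its canonical transcript to 1784. On the summed exon length the KD means were 245 ± 51.6 for KRT19, 216 ± 67.5 for KRT18, 162 ± 51.7 for KRT8, 131 ± 49.7 for KRT7, 50.1 ± 13.3 for KRT80 and 9.36 ± 4.78 for KRT81. In KD no neighbours among the first 4 differed beyond their spread, which is taken between libraries. Within each KD library the order held: KRT19 (208 and 281), KRT18 (168 and 263), KRT8 (125 and 198) and KRT7 (95.5 and 166). Within each WT library KRT18 (112 and 124) and KRT19 (111 and 123) lay close together. So did KRT8 (72.1 and 80.7) and KRT7 (71.2 and 78.2) there.

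Ratios of counts within a library do not depend on how libraries are scaled. KRT8 stood to its partner KRT18 as 1.44 and 1.46 in WT and as 1.67 and 1.69 in KD. The 4 exact binomial 95% intervals fell into separate pairs, the WT intervals reaching up to 1.53 and the KD intervals starting at 1.59. KRT7 to KRT18 was 0.829 and 0.822 in WT and 0.741 and 0.821 in KD, with the WT values inside the counting interval of KD replicate 2. KRT19 to KRT18 was 0.757 and 0.754 in WT and 0.943 and 0.812 in KD. KRT80 and KRT8 are type II keratins of like G+C content (57.5 and 55.9%) and were set side by side after their values were seen. The ratio of KRT80 to KRT8 was 0.388 and 0.377 in WT and 0.206 and 0.190 in KD, a KD mean 0.518 times the WT mean. KRT81 to KRT8 was 0.0337 and 0.0322 in WT and 0.0134 and 0.0180 in KD, a KD mean 0.476 times the WT mean. VIM to KRT8 was 4.67 and 4.51 in WT and 3.46 in both KD libraries. With 2 libraries against 2, a two-sided exact permutation test cannot give a p below 0.333.

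**Figure D3:**
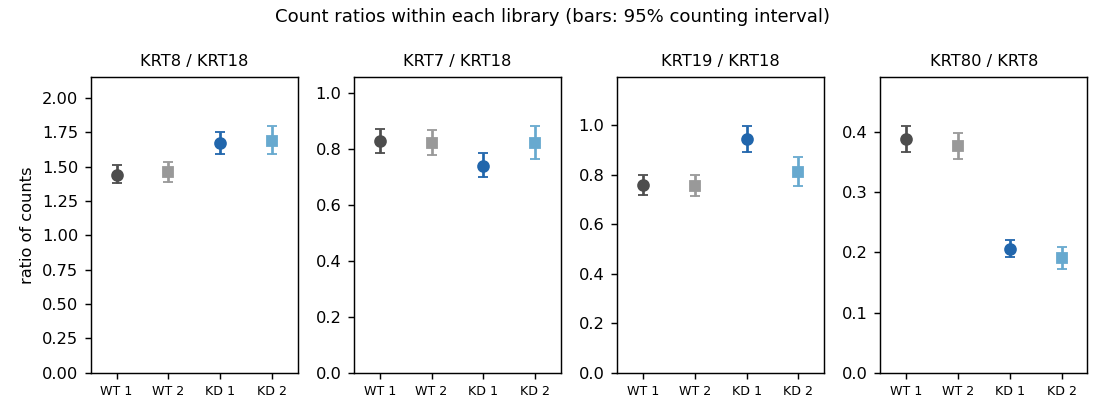
Ratio of counts of keratin pairs within each library, with exact binomial 95% intervals that cover counting error only; each panel has its own axis from 0. KRT8 to KRT18 is higher and KRT80 to KRT8 lower in both KD libraries than in both WT libraries, and for KRT7 to KRT18 the interval of KD replicate 2 holds both WT values.

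Base composition was set beside these values for each gene. KRT8 and KRT18 (55.9 and 55.7% G+C), KRT7 (57.5%) and KRT80 (57.5%) fall in the 55 to 60% bin, whose median log2 fold change was 0.39, and KRT19 (60.02%) and KRT81 (62.3%) in the bin from 60%, whose median was 0.50. The 4 simple keratins lay above the median of their bin at 0.80 to 1.08, and KRT80 (0.12) and KRT81 (-0.04) below it. After removal of the trend the medians of the 6 bins lay between -0.01 and 0.02. This follows from the fit, since the trend was estimated on these same libraries, and is no check of the correction.

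**Figure D4:**
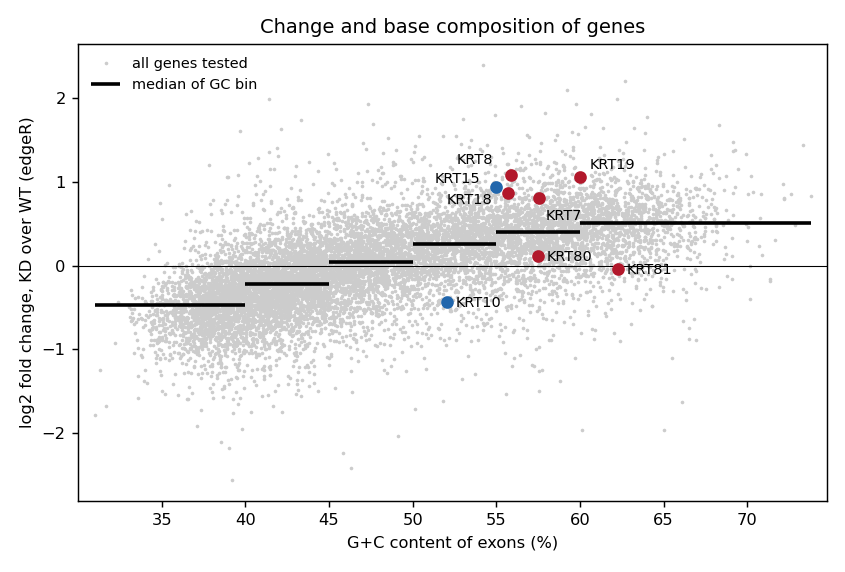
Log2 fold change (KD over WT, edgeR) against the G+C content of exons for all genes tested (grey), with the median of each G+C bin (black bars), the 6 tested members (red) and KRT15 and KRT10 (blue). The bin medians climb from -0.48 under 40% to 0.50 from 60%; KRT8, KRT18, KRT7 and KRT19 lie above the bar of their bin and KRT80, KRT81 and KRT10 below.

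Of the 39 other keratin genes in the tables, 31 had no count, and 5 (KRT4, KRT16, KRT34, KRT79 and KRT83) had 1 to 3 counts in all. Among them are hair keratins, keratins of stratified epithelium and keratins of the inner root sheath. KRT10 and KRT15 passed the filter. KRT10, the type I keratin of the suprabasal epidermis, had 39.3 and 34.6 CPM in WT and 29.9 and 24.1 CPM in KD, so it was lower in both KD libraries. Its log2 fold change was -0.43 ± 0.21 (adjusted p = 0.250, edgeR) and -0.63 ± 0.19 with the trend removed (adjusted p = 0.0945, edgeR), where it was called, against 3.17% of genes called lower. KRT15, a type I keratin of basal progenitor cells, had 3.79 and 5.52 CPM in WT and 6.80 and 12.3 CPM in KD, a log2 fold change of 0.94 ± 0.38 (adjusted p = 0.210, edgeR), and was not called with the trend removed (adjusted p = 0.220). KRT86, a hair keratin, had 14, 10, 5 and 4 counts and did not pass the filter.

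Genes whose products bind keratin filaments were taken as 1 list of 26 genes of desmosomes, hemidesmosomes and the cornified envelope, of which 20 were tested. By edgeR none was called. The median log2 fold change was 0.36, against 0.01 over all genes, and 13 of the 20 were higher in both KD libraries, against 32.5% of all genes tested. DESeq2 called 4 of 18 higher (JUP, PKP3, PLEC and ITGB4), against 5.52% of genes, and none lower. With the trend removed the median was 0.23 and edgeR called 3 of 20 higher (JUP, DSG2 and TRIM29), against 2.19% of genes, and none lower. JUP, the plakoglobin of desmosomes and adherens junctions, had 60.8 and 51.2 CPM in WT and 109 and 192 CPM in KD, a log2 fold change of 1.41 ± 0.29 (adjusted p = 0.176, edgeR), 1.40 by DESeq2 (adjusted p = 0.000811) and 0.92 with the trend removed (adjusted p = 0.0242). PLEC, the plectin that ties intermediate filaments to hemidesmosomes, had 3120 and 3389 CPM in WT and 4764 and 9059 CPM in KD, the widest gap between KD libraries among the abundant genes of the list. Its exons hold 67.2% G+C, and its log2 fold change was 1.09 ± 0.31 (adjusted p = 0.194, edgeR) and 0.42 ± 0.12 with the trend removed. DSG2, a desmosomal cadherin with 39.4% G+C, had a larger change with the trend removed than without, 0.24 ± 0.20 (adjusted p = 0.470, edgeR) and 0.66 ± 0.10 with the trend removed (adjusted p = 0.0231). ITGB4, the integrin β4 of hemidesmosomes, had a log2 fold change of 0.80 ± 0.25 and its partner ITGA6 one of -0.11 ± 0.22, and with the trend removed 0.28 ± 0.10 and 0.14 ± 0.11. LAMB3, a chain of the laminin under hemidesmosomes, had 0.53 ± 0.23, and 0.10 ± 0.10 with the trend removed. DST, the plakin dystonin, stood at 1825 to 2567 CPM with a log2 fold change of -0.07 ± 0.22. TRIM29 was called on 46 to 59 counts a library, and PKP3, a plakophilin, had 14.6 and 16.7 CPM in WT and 24.4 and 35.9 CPM in KD.

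Among 15 other intermediate filament genes, 8 were tested and their median log2 fold change was 0.19. VIM had a log2 fold change of 0.68 ± 0.25 (adjusted p = 0.198, edgeR), and LMNA, the A-type nuclear lamin, 0.93 ± 0.29 (adjusted p = 0.194). DESeq2 called both (adjusted p = 0.0992 and 0.0357) and the fit with the trend removed called neither. LMNB1, a B-type lamin, had 151 and 166 CPM in WT and 106 and 114 CPM in KD, and was called lower with the trend removed (log2 fold change -0.67 ± 0.10, adjusted p = 0.0215, edgeR). LMNB2 stood at 0.35 ± 0.22 (adjusted p = 0.332, edgeR). Of 16 epithelial transcription factors 9 were tested, with a median of -0.19. TFAP2C, an AP-2 factor of luminal cells, had 8.84 and 7.23 CPM in WT and 4.53 and 4.25 CPM in KD. It was called lower with the trend removed (-1.04 ± 0.28, adjusted p = 0.0795, edgeR). The most abundant factors were EHF (-0.44 ± 0.20), SOX9 (-0.29 ± 0.17), KLF4 (0.13 ± 0.18) and KLF5 (-0.13 ± 0.19), none of them called.

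In chromatin of WT cells an mH2A1.1 peak lay within 500 bp of the transcription start site (TSS) of 7 of the 10 members (KRT8, KRT18, KRT19, KRT80, KRT81, KRT17 and KRT5), against 37.8% of 23061 genes. An mH2A1 peak lay there at 3 (KRT19, KRT17 and KRT14), against 21.2%. A peak of the mH2A1.1 list that overlaps the mH2A1 list anywhere, here called common, lay there at 6, against 23.8%. Counting only the stretches that both lists share, 2 members (KRT19 and KRT17) had them there, against 14.7%. With 10 members the exact 95% intervals of the shares are wide, 34.8 to 93.3% for mH2A1.1 and 6.67 to 65.2% for mH2A1, and members that share a peak are not independent. Each antibody gave 1 library, so no spread between replicates can be given, and the lists hold positions without a height. Among the members with mH2A1.1 at the TSS are genes among the most abundant (KRT18, KRT19) and genes near 0 (KRT17, KRT5).

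The peaks over the keratin loci were broad. From KRT80 to KRT18 the type II locus spans 784 kb of chromosome 12 with 27 keratins. It was covered by mH2A1.1 peaks over 28.1% of its length and by mH2A1 peaks over 36.5%, against 7.35 and 6.09% of the chromosome. The type I locus, 927 kb of chromosome 17 from KRT24 to KRT17 with 22 keratins, was covered over 13.9 and 21.99%, against 24.4 and 20.2% of that chromosome. Coverage by mH2A1.1 was thus above that of the chromosome at the type II locus and below it at the type I locus.

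KRT19 and KRT17 were covered along their whole length by both lists. KRT19 lay in an mH2A1.1 peak of 75 kb (chr17:41478001-41553000), which also held the start sites of KRT15, KRT13, KRT35 and KRT36. KRT17 lay in an mH2A1.1 peak of 90 kb (chr17:41610001-41700000) with KRT16 and with EIF1, a translation initiation factor gene with 1289 to 4186 counts a library. A single mH2A1 peak of 246 kb (chr17:41436001-41682000) spanned KRT19, KRT14 and KRT17, and 11 keratin start sites in all. KRT14 was covered by it and lay in a gap of the mH2A1.1 list, 2106 bp from the nearest such peak. One mH2A1 peak thus held KRT19, with 2473 WT counts in the first library, and KRT14, with none.

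KRT18 and the upstream start of KRT8 shared an mH2A1.1 peak of 24 kb (chr12:52926001-52950000), within which mH2A1 was called in a single bin of 3 kb. The nearest mH2A1 peak to the KRT18 start was 13130 bp away. KRT8 has start sites far apart: that of its gene record, at 52949954, lies under the peak, whereas that of its canonical transcript, at 52905076, lies 8925 bp from the nearest mH2A1.1 peak. KRT80 had mH2A1.1 over its start and 47.9% of its length, with an mH2A1 peak beginning 1987 bp away. KRT81 was covered over its whole length by an mH2A1.1 peak of 15 kb and over 72.7% by mH2A1, which stopped 1534 bp short of the start. KRT7 had no peak at its start; mH2A1.1 covered 51.8% of it, downstream, in a peak (chr12:52242001-52257000) that also held the start of KRT86. KRT6A had neither, with the nearest mH2A1 peak at 3744 bp. KRT5 had an mH2A1.1 peak of 3 kb upstream and an mH2A1 peak over 57.5% of its length that ended 2530 bp from the start. With the start of the canonical transcript in place of that of the gene record, chosen after the data were seen, KRT8 and KRT5 no longer counted. Then 5 of 10 members had mH2A1.1 at the TSS, against 38.0% of 23061 genes. The simple keratins thus differed among themselves: KRT18 and KRT19 had mH2A1.1 at the start, KRT7 did not, and KRT8 did at one of its starts.

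**Figure D5:**
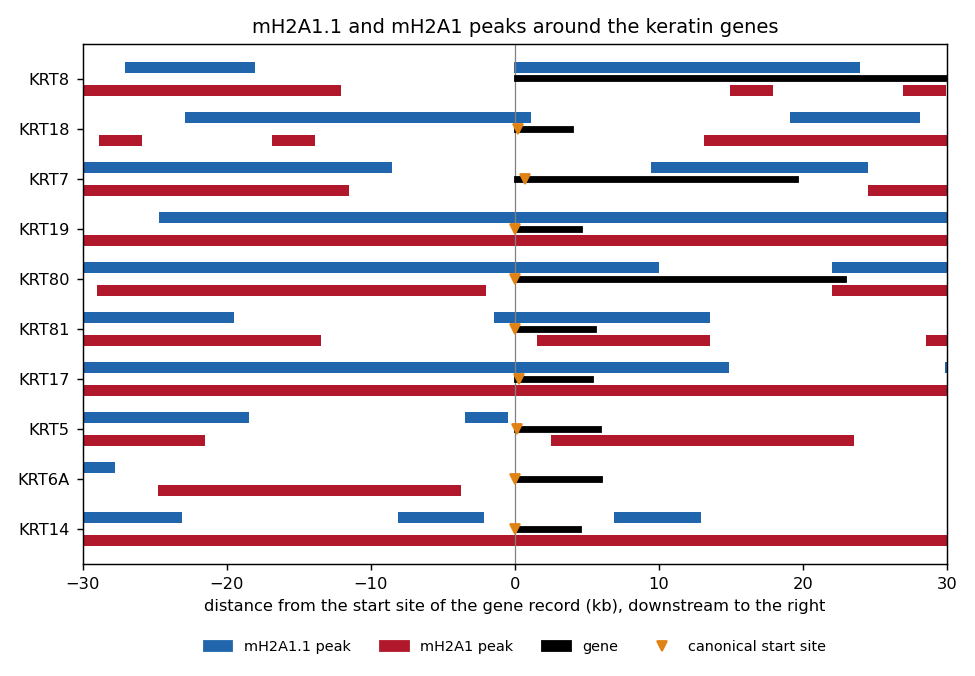
Peaks of mH2A1.1 (blue) and mH2A1 (red) within 30 kb of the start site of each member (0 kb), drawn in the direction of transcription, with the gene in black and the canonical start site as a triangle (that of KRT8 lies beyond the right edge). KRT19 and KRT17 are covered by both lists, KRT18, KRT80 and KRT81 by mH2A1.1 at the start, KRT14 by mH2A1 alone, and KRT6A by neither.

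Promoter sequences of 2 of the 10 members, KRT8 and KRT5, were in the RefSeq table used (GRCh38.p14, 250 bases before to 50 after the start). They are shown because one lies just inside and the other just outside an mH2A1.1 peak. The KRT8 window, at the start in the middle of the gene record (chr12:52926420-52926719, minus strand), lies just inside the 24-kb peak, and the KRT5 window (chr12:52520345-52520644, minus strand) lies just outside the 3-kb peak that begins at 52521001. The KRT8 window is thus at neither of the KRT8 starts used above. Its start lies 21393 bp from that of the canonical transcript and 23485 bp from that of the gene record.
KRT8: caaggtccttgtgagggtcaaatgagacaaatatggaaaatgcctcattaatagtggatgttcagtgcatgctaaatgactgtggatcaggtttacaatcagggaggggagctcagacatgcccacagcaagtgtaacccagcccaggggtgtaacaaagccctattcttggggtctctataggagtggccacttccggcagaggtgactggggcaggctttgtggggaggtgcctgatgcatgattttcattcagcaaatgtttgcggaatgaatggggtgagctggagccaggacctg
KRT5: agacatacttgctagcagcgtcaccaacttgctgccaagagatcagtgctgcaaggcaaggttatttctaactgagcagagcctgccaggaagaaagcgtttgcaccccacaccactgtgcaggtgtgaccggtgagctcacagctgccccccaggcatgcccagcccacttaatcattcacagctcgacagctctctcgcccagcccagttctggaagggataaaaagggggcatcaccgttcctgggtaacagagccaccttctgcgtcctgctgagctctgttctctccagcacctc
The KRT8 window holds 50.7% G+C and the KRT5 window 56.3%, against a median of 58.7% over 35116 promoters. Both strands were searched for a TATA box (TATAAA), a GC box (GGGCGG), an AP-1 site (TGANTCA) and an AP-2 site (GCCNNNGGC), and neither window held any of the 4, so no letter is in capitals. Only these exact letters were searched, so a site that departs from them was not counted. Over all promoters of the same length the shares with a match were 11.5, 44.95, 7.71 and 23.2%.

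Several members share sequence with other genes. Exact 50-base windows of the canonical transcript were looked up in all other annotated keratin genes and pseudogenes. For KRT8 39.0% of windows also occurred in another keratin transcript, 33 of the 34 genes concerned being pseudogenes, and for KRT18 35.3% did, in 43 pseudogenes. For KRT7 (0.444%), KRT80 (0.418%) and KRT19 (1.79%) the share was small. The mapping-quality filter removes reads that map equally well to several places, which can lower the counts of KRT8 and KRT18 in every library. For KRT81 44.6% of windows were shared, mostly with KRT86, and for KRT6A 39.2%, mostly with KRT6C. KRT81 and KRT86 have 605 bases of coding sequence without a difference, from base 61 of both. The first 120 of these lie in exon 1 of KRT81 (chr12:52291286-52291405, minus strand, GRCh38) and show why the reads of both genes cannot be told apart there.
KRT81 and KRT86: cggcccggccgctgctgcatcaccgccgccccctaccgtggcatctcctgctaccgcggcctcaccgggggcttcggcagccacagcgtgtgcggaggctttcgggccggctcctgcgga
KRT81 also lies within the KRT86 gene, on the other strand, and KRT8 overlaps KRT18, KRT7 overlaps KRT86 and an antisense gene, KRT17 overlaps a gene without a symbol, and KRT80 overlaps LINC00592, which had 1 or 2 counts a library. Per the study's methods htseq-count was run with default parameters, which assign a read by strand and leave out reads that fit more than 1 gene. Whether that setting matched the strand of these libraries was not tested. The counts of KRT81 are uncertain because of the sequence it shares with KRT86.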

How the data were processed

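RNA-seq reads of MDA-MB-231 cells (TruSeq Stranded total RNA) were aligned by the authors with STAR 2.5.1 to GRCh38, filtered for a mapping quality of 10 and for duplicates, and counted per gene with htseq-count; the deposited values are raw counts. The deposited ChIP-seq files hold peak positions from normR against input in 3-kb bins, with a score of 0 in every line, and were used as positions only. Gene names, positions, exon lengths and G+C content were taken from GENCODE 44. Counts of 2 WT and 2 KD libraries were tested with edgeR 4.0.16 (TMM, filterByExpr, quasi-likelihood, Benjamini-Hochberg adjustment). A gene was called at a fold over 1.5 with an adjusted p below 0.1. Chromosomes 21, 22 and X were left out because KD replicate 2 lacks counts there. DESeq2 1.42.0, and a fit with a lowess trend (span 0.3) on exon length and G+C removed from each library, were alternatives, with others listed in the closing section. CPM are counts scaled to the TMM-normalised library size of the genes kept by the filter. Low counts are given with a floor of 3 counts per library, and intervals of shares and ratios are exact binomial at 95%. The scripts were tested on simulated data. Peaks were assigned to a gene when 1 base fell within 500 bp of its TSS. Members and lists were chosen with earlier results of these data known. Named genes are all members and MACROH2A1, the 4 most abundant and any called gene of each other list, and genes overlapping, copying or sharing a peak with a member; others were named after their values were seen. KRT12, KRT20, KRT23, KRT39 and KRT40 were not analysed here.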

Additional observations from a re-analysis of the deposited data

How the results depend on the processing

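The number of members called was 0 by edgeR, with RLE factors, with all chromosomes and at an adjusted p under 0.05. It was 4 with DESeq2 (874 of all genes called) and 4 with no filter on low counts (2139 of all genes). The number was 2 with the length and G+C correction (588 of all genes) and 1 with counts thinned to the smallest library (80 of all genes). Leaving out a replicate leaves 1 library in a group. The number of members called then changed with the replicate left out, as did that of all genes. Settings added after seeing the data gave 3 (DESeq2 on all chromosomes), 2 (DESeq2 with the correction) and 2 (no KD replicate 2, with the correction: KRT19 higher and KRT81 lower). Other keratins called numbered 0, then 1 without the filter, 1 with the correction, and 0 to 2 when a replicate was left out. Partner genes numbered 0, then 6 with DESeq2, 8 without the filter, 5 with the correction, 1 with thinned counts, 0 to 12 when a replicate was left out, and 6, 3 and 6 in the added settings. All genes called numbered 0, then 874, 2139, 588 and 80 in those 4 settings, 2 to 4744 when a replicate was left out, and 945, 474 and 657 in the added ones. The differences between WT and between KD libraries correlated at 0.252 over genes, which with 2 pairs does not establish pairing; the replicate block gave 4 members, 1 other keratin, 7 partner genes and 2208 genes, and with the correction 2, 1, 5 and 867. MACROH2A1 was lower under all settings run (log2 fold change -0.51 to -0.38). When a replicate was left out, KRT8 ranged from 0.72 to 1.37, KRT18 from 0.51 to 1.15, KRT7 from 0.36 to 1.14 and KRT19 from 0.83 to 1.25. KRT80 turned lower with the correction (-0.28, and -0.28 with the block), without KD replicate 2 (-0.17; range -0.17 to 0.36 when a replicate was left out), and in 2 added settings, DESeq2 with the correction (-0.21) and no KD replicate 2 with the correction (-0.32). KRT81 turned higher with all chromosomes (0.020), without WT replicate 2 (0.05), without KD replicate 1 (0.50; range -0.58 to 0.50) and with DESeq2 on all chromosomes (0.0037). Members with an mH2A1 peak numbered 6 within 3 kb, against 29.8% of genes, and 7 over any base of the gene, against 42%. Members with a common peak numbered 2 over the stretches that both lists share, against 14.7% of genes. The cause of these shifts was not tested. The depth of KD replicate 2 limits members under about 10 counts.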
